A study of Mus musculus with 12 samples.

Results

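The human silencing hub (HUSH) complex and its partners were followed as 8 genes, Mphosph8, Fam208a, Fam208b, Pphln1, Setdb1, Morc2a, Atf7ip and Trim28, of the 32285 identifiers in the count table of hematopoietic stem cells (HSCs) and the 56980 in that of macrophages. They were taken by their Ensembl identifiers, and all 8 had enough reads to be tested in each comparison. The set was chosen by measured values in part, since a higher level of Mphosph8 in HSC libraries labelled Cre positive and of Fam208b in Cre positive macrophages drew attention to it. The genotype differences are therefore given as a description, with no p-value for any of the 8 genes. The libraries came from C57BL/6 mouse fetal livers at E14.5. Every embryo carried floxed Jag1 alleles (Jag1 f/f), Jag1 encoding the Notch ligand Jagged1, and the groups differed in the presence of Vav-Cre, a transgene driven by Vav regulatory sequence that acts across blood cells. HSCs were gated as live CD45+ Lin- cKit+ Sca1+ CD48- CD150+ cells (3 libraries VavCre-, 3 VavCre+, 2000 cells each), and macrophages by CD169 (3 libraries VavCre-, 3 VavCre+, 1000 to 3000 cells each). The HSC groups are described as littermates, but nothing ties the libraries of either sort to separate or pooled embryos, so p-values measure only the spread between these libraries.

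HUSH is a nuclear complex that silences newly integrated and transcribed foreign DNA, young LINE-1 elements and some long, intron-poor genes. Its core holds MPP8 (gene Mphosph8), a chromodomain protein that binds methylated H3K9, TASOR (Fam208a), the scaffold, and periphilin (Pphln1), an RNA-binding protein. TASOR2 (Fam208b) is a paralog of TASOR that takes part in an alternative assembly. The complex works through SETDB1, an H3K9 methyltransferase, which ATF7IP keeps nuclear and stable, and through MORC2 (Morc2a), an ATPase that compacts chromatin. TRIM28, also called KAP1, brings SETDB1 to sites bound by KRAB zinc finger proteins, a parallel route to the same mark.

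On GRCm38, GENCODE M21 places the core genes Mphosph8 (ENSMUSG00000079184) at chr14:56668248-56697430 (plus), Fam208a (ENSMUSG00000040651) at chr14:27428834-27483555 (plus) and Pphln1 (ENSMUSG00000036167) at chr15:93398350-93491510 (plus), and the paralog Fam208b (ENSMUSG00000033799) at chr13:3566035-3611108 (minus). The partner genes are Setdb1 (ENSMUSG00000015697) at chr3:95323525-95357202 (minus), Morc2a (ENSMUSG00000034543) at chr11:3649191-3690477 (plus), Atf7ip (ENSMUSG00000030213) at chr6:136506167-136610862 (plus) and Trim28 (ENSMUSG00000005566) at chr7:12999114-13031035 (plus). All 8 encode proteins, and the deposited values are 1 per gene, so that isoforms cannot be told apart.

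The promoters of Mphosph8 and of the TASOR paralogs are shown because the levels of Mphosph8 and Fam208b chose the set, and Fam208a is the paralog set beside Fam208b. That of Pphln1 holds an exon of its neighbour Zcrb1 and is not shown. Each is the 250 bases before the RefSeq start site on GRCm38.p6, 5′ to 3′ on the gene's strand, from chr14:56667998-56668247 (plus), chr14:27428584-27428833 (plus) and chr13:3611109-3611358 (minus). Capitals mark the GC box GGGCGG, the CCAAT box (CCAAT) and the NRF1 motif (GCGC, any 2 bases, GCGC), searched on both strands; no marked match overlaps another.
Mphosph8: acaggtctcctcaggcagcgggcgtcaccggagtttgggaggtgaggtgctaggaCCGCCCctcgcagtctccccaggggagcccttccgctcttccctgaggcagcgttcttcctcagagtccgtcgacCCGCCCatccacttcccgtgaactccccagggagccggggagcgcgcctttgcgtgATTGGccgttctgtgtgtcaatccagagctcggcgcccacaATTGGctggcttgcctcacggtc
Fam208a: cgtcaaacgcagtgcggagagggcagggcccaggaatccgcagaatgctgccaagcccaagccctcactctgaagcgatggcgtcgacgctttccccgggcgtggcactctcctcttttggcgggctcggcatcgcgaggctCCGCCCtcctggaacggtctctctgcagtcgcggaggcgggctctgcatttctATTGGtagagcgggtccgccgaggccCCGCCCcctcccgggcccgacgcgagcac
Fam208b: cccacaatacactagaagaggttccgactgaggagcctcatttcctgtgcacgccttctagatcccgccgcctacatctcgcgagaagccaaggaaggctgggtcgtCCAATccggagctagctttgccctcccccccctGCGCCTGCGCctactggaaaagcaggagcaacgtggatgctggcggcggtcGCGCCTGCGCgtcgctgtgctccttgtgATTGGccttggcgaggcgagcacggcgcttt
The 3 sequences hold 65.6%, 68.4% and 62.8% G and C in this order, against a median of 52.4% over 32851 RefSeq promoters. Mphosph8 holds 2 GC boxes and 2 CCAAT boxes, and Fam208a holds 2 GC boxes and 1 CCAAT box. The Fam208b sequence holds 2 CCAAT boxes and 2 NRF1 matches and has no GC box. A GC box stood in 32.7% of all promoters of this length, a CCAAT box in 33.9% and the NRF1 motif in 4.98%. The Mphosph8 window overlaps an exon of the pseudogene Gm4032 on the opposite strand, and the windows of Fam208a and Fam208b overlap no annotated exon. These matches are letters in a window, and no binding was measured.

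Depth and identity of the libraries were read first. Counted reads per library ran from 51982064 to 77463770 in HSCs, from 17230019 to 24658205 in macrophages without Cre and from 2602934 to 5366990 in those with it. The HSC sort carried the HSC factor Hlf at 61.9, 83.0 and 195.7 CPM (counts relative to the TMM-scaled library size) in Cre negative libraries. Under the Cre positive label Hlf measured 194.2, 189.2 and 203.5 CPM. The genes of the gate did not share this order, and their groups overlapped. Kit measured 76.65, 113.9 and 183.5 CPM against 126.5, 162.5 and 40.1 CPM under the Cre positive label. Slamf1 (CD150) measured 8.04, 16.9 and 74.4 CPM against 34.2, 67.8 and 23.95 CPM, and Ly6a (Sca1) 156, 160.1 and 128.5 CPM against 127.2, 150.4 and 190.4 CPM. The sort also carried the sinusoidal endothelial gene Stab2 at 567 to 1569 CPM. The macrophage sort carried Siglec1, which encodes CD169, at 16.2 to 117.5 CPM against 2455 to 5121 CPM of Stab2. Jag1 measured 6.53, 6.87 and 1.16 CPM in Cre negative HSCs and 10.5, 0 and 19.5 CPM under the Cre positive label, so that it does not follow that label, and directions in HSCs refer to the labels. In macrophages it measured 52.6, 21.1 and 26.3 CPM without Cre and 0, 10.6 and 6.79 CPM with it. In such bulk samples, fewer cells of a type and less RNA per cell cannot be told apart.

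The levels of the 8 genes were ordered per kilobase of exon (CPM per kb, exonic lengths of GENCODE M21). These lengths join the exons of all annotated isoforms and can exceed any transcript, so the order depends on that measure. In Cre negative HSCs Trim28 was the most abundant, at 30.8 ± 3.24 CPM per kb (SD, n = 3), followed by Mphosph8 at 13.9 ± 2.38 and Pphln1 at 11.95 ± 0.620, which did not differ beyond their spread. Atf7ip (4.94 ± 1.76), Setdb1 (4.76 ± 1.47) and Morc2a (3.11 ± 0.986) came next. The libraries of Atf7ip and Setdb1 overlapped. Those of Setdb1 lay just above those of Morc2a, the nearest at 3.89 and 3.76 CPM per kb. The lowest were the paralogs Fam208a at 2.38 ± 0.130 and Fam208b at 1.65 ± 0.205 CPM per kb, whose libraries did not overlap; Fam208a lay within the spread of Morc2a. Within the core, Fam208a was counted at a lower level per exonic base than Mphosph8 and Pphln1. The part of the length measure in this order was not tested. In Cre negative macrophages Trim28 again stood highest, at 58.4 ± 18.1 CPM per kb, and the TASOR paralogs again lowest, at 6.64 ± 0.681 for Fam208a and 4.31 ± 0.725 for Fam208b. Between them lay Morc2a (15.9 ± 2.29), Pphln1 (15.9 ± 2.58), Mphosph8 (11.29 ± 3.81), Atf7ip (11.2 ± 2.24) and Setdb1 (9.61 ± 4.002). The libraries of neighbours in this order overlapped. The libraries of Trim28 lay above those of Morc2a, and those of Fam208a above those of Fam208b.

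**Figure D1:**
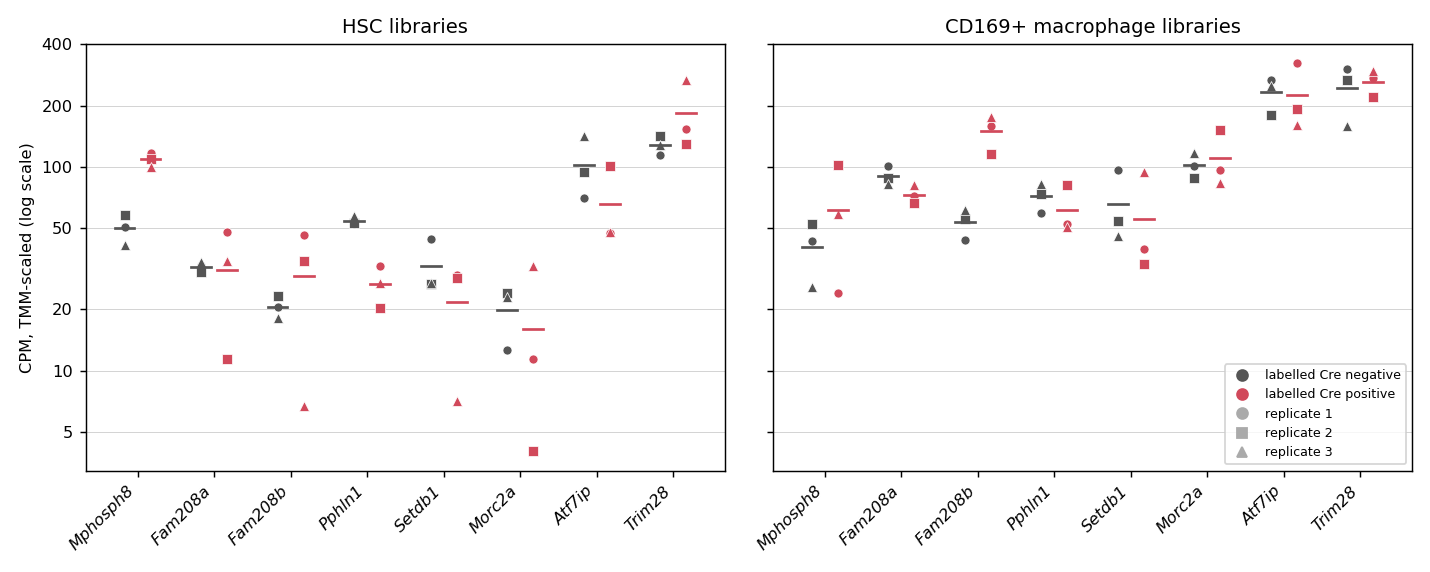
Level of each gene in CPM (TMM-scaled, log axis) in every library of the HSC sort (left) and the macrophage sort (right); symbols give the replicate, colours the labelled genotype and short lines the group mean of 3 libraries. Mphosph8 and Pphln1 separate the HSC groups in opposite directions. Fam208b separates the macrophage groups, and Fam208a does so narrowly in the other direction (nearest libraries 82.4 and 81.1 CPM).

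In HSCs the 3 core genes are described in turn, since the level of Mphosph8 in this contrast helped choose the set. Mphosph8 was counted at 50.4, 58.2 and 41.2 CPM without Cre, and the libraries labelled Cre positive gave 116.6, 109.6 and 100.2 CPM. Every library labelled Cre positive was above every Cre negative one, and the fitted log2 fold change was 1.12 with a standard error (SE) of 0.26, or 2.18-fold. Pphln1, its partner in the core, lay the other way: 52.4, 53.1 and 57.6 CPM against 32.7, 20.2 and 27.1 CPM. These groups did not overlap either, and the log2 fold change was -1.03 (SE 0.35), a level 2.04-fold lower. Fam208a stood at 32.5, 30.6 and 34.1 CPM without Cre and at 48.2, 11.5 and 34.4 CPM under the Cre positive label. The Cre negative values of this scaffold gene lay close together, the others on both sides of them (log2 fold change -0.05, SE 0.54). The 3 core genes thus had fitted differences of 1.12, -0.05 and -1.03 in the same libraries.

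The paralog and the partners spread widely among the HSC libraries labelled Cre positive. Fam208b measured 20.5, 23.2 and 18.1 CPM in Cre negative HSCs and 46.2, 34.5 and 6.67 CPM under the Cre positive label (log2 fold change 0.50, SE 0.68). Replicates 1 and 2 of the latter were above, and replicate 3 below, all Cre negative libraries. Setdb1 measured 44.2, 26.7 and 26.8 CPM against 29.4, 28.5 and 7.12 CPM (log2 fold change -0.59, SE 0.61), again with replicate 3 lowest. Morc2a measured 12.7, 24.2 and 23.0 CPM against 11.4, 4.02 and 32.7 CPM (-0.31, SE 0.81), an 8.13-fold span over the 6 libraries and the widest of the 8 genes in this sort. Atf7ip, which stabilises SETDB1, measured 70.2, 94.8 and 142 CPM against 47.2, 101.6 and 47.8 CPM (-0.64, SE 0.41). Trim28 measured 114.7, 141.6 and 127.9 CPM against 154.1, 130.1 and 266.3 CPM (0.52, SE 0.30), with replicate 3 highest of all. In all 5 the groups overlapped. Replicate 3 of the libraries labelled Cre positive therefore held the lowest Fam208b and Setdb1 and the highest Morc2a and Trim28 of the 6 HSC libraries.

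Set against all genes, 2 of the 8 did not overlap in HSCs, 1 higher and 1 lower, where 6.37% of the 13962 genes tested lay higher and 9.33% lower without overlap. Over all genes, 0% passed an adjusted p of 0.05 in edgeR's quasi-likelihood test, 6.39% of all genes had an unadjusted p under 0.05, and DESeq2 called 133 genes. The median log2 fold change of the 8 was -0.18 and that of all genes -0.01, with 3 of the 8 above 0. Nothing is read from these counts, since this contrast chose the genes. Single libraries labelled Cre positive decided several values. Without replicate 1 Fam208b stood at -0.0010. Without replicate 2 Fam208a stood at 0.35, Morc2a at 0.14 and Atf7ip at -1.11, and 3 of the 8 lay higher and 2 lower without overlap, where 11% and 15.4% of all genes did so with that library left out. Without replicate 3 Fam208b stood at 0.97, Morc2a at -1.37, Setdb1 at -0.18 and Trim28 at 0.15, and 2 of the 8 lay higher and 2 lower without overlap, against 11.8% and 14.6% of all genes.

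**Figure D2:**
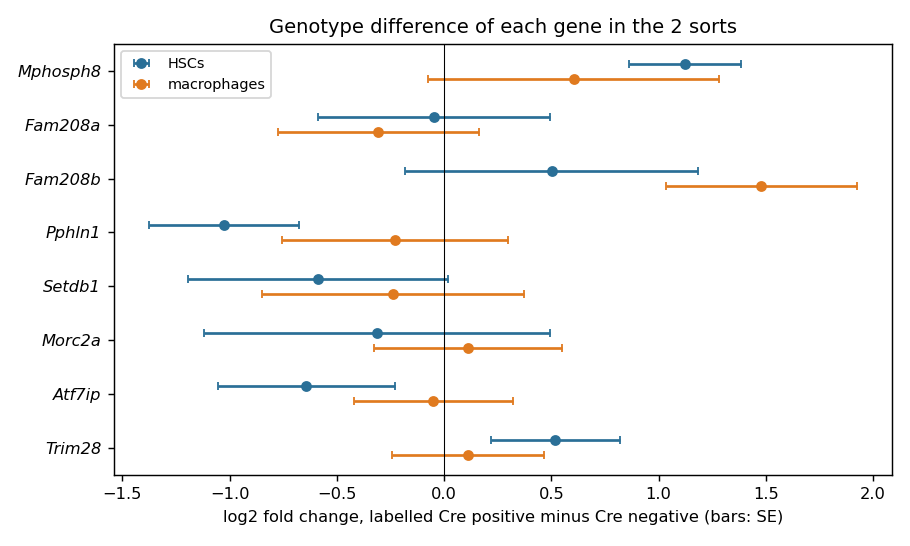
Fitted log2 fold change of each gene, labelled Cre positive minus Cre negative, in HSCs (blue) and macrophages (orange), with bars of 1 SE and 3 libraries per group. Mphosph8 (1.12) and Pphln1 (-1.03) lie farthest from 0 in HSCs and Fam208b (1.48) in macrophages.

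In macrophages the gene farthest from 0 was the TASOR paralog. Fam208b measured 43.9, 55.3 and 61.7 CPM in Cre negative and 158, 115.8 and 175.1 CPM in Cre positive libraries, a log2 fold change of 1.48 (SE 0.45), or 2.79-fold. Every Cre positive library lay above every Cre negative one. Its counterpart Fam208a measured 100.6, 88.5 and 82.4 CPM against 71.6, 66.8 and 81.1 CPM (log2 fold change -0.31, SE 0.47). These groups did not overlap, but the nearest libraries, 82.4 and 81.1 CPM, nearly met, and the groups overlapped with upper-quartile scaling, on library totals and after thinning to equal depth. Per kilobase, Fam208a was counted above Fam208b in each Cre negative library (7.38, 6.49 and 6.05 against 3.52, 4.44 and 4.96 CPM per kb). In each Cre positive library the order was the reverse, with 5.25, 4.90 and 5.95 CPM per kb of Fam208a and 12.7, 9.30 and 14.1 of Fam208b. In HSCs the paralogs kept no such order, since Fam208b was the higher per kilobase in replicates 1 and 2 of the libraries labelled Cre positive and the lower in the other 4 libraries.

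The other core genes overlapped between the macrophage groups. Mphosph8 measured 43.3, 52.5 and 25.6 CPM against 24.1, 101.7 and 58.6 CPM (log2 fold change 0.60, SE 0.68), the lowest and the highest value both falling to Cre positive libraries. Behind the lowest stood 67 reads. Pphln1 measured 59.5, 73.9 and 82.7 CPM against 52.5, 81.4 and 50.5 CPM (-0.23, SE 0.53). Setdb1 measured 97.1, 54.3 and 46.0 CPM against 39.6, 33.5 and 94.3 CPM (-0.24, SE 0.61), with 1 high library in each group. The remaining partners, Morc2a at 83.0 to 151.3 CPM, Atf7ip at 160.1 to 322.4 CPM and Trim28 at 158.6 to 304.0 CPM over all 6 libraries, had fitted differences of 0.11, -0.05 and 0.11. Of the 8 genes, 1 lay higher and 1 lower without overlap, where 2.27% and 11.8% of the 17806 genes tested did. By edgeR's test 0% of all genes passed, 5.42% of all had an unadjusted p under 0.05, and DESeq2 called 61. The median of the 8 was 0.03 and that of all genes -0.16; upper-quartile scaling moved the latter to -0.00 and library totals to 0.05. Leaving out Cre positive replicate 2 took Mphosph8 to 0.0023, and leaving out Cre negative replicate 1 took Setdb1 to 0.16. The signs of Morc2a, Atf7ip and Trim28 also turned when single libraries were left out, and those of Atf7ip and Pphln1 after thinning.

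Library depth and the share of stellate cell markers separated the macrophage genotypes, while the shares of endothelial, macrophage and erythroid markers overlapped. The Fam208b values rest on 758, 1185 and 1339 reads in Cre negative and 439, 623 and 1006 reads in Cre positive libraries, and the difference after thinning to equal depth was 1.64 on the log2 scale. The 10 endothelial markers took 1.60%, 0.794% and 0.801% of reads in Cre negative and 1.38%, 1.66% and 1.31% in Cre positive libraries, and all 10 were counted in each; 9 of the 10 had the higher mean CPM with Cre. The 10 macrophage markers took 0.171%, 0.389% and 0.382% against 0.203%, 0.225% and 0.334%, again with all 10 counted, and 1 of the 10 had the higher mean with Cre. Stellate cell markers took 0.0259% to 0.174% against 0.0126% to 0.0194%, with 2 of the 10 at 0 in each Cre positive library. Erythroid markers took 0.00430%, 0.0157% and 0.0199% against 0.00130%, 0.00330% and 0.0216%, with 2, 0 and 0 of the 9 at 0 without Cre and 7, 5 and 3 with it, and 6 of 8 tested had the lower mean. The part of these cells in the Fam208b difference was not tested. Hepatoblast markers took 0.400% of Cre negative replicate 1 and 0.0411% to 0.0808% of the other 5, and without that library the Fam208b difference was 1.36. Neither this value nor that after thinning is support for the difference, since Fam208b helped choose the set. The parts of depth and of hepatoblasts in it were not tested. In the HSC sort endothelial markers took 0.517% to 1.06% of Cre negative reads and 0.506% to 0.681% under the Cre positive label, where 7 of the 10 had the lower mean, and stellate markers took 0.0393% to 0.0894% against 0.0361% to 0.0575%, with 8 of 10 lower. Megakaryocyte markers took 0.0191% to 0.0234% against 0.0119% to 0.0528%, and 4 of 5 tested had the higher mean under the Cre positive label. The 10 HSC markers took 0.0739%, 0.132% and 0.205% against 0.172%, 0.173% and 0.128%, and 7 of the 10 had the higher mean under that label. The part of these cells in the Mphosph8 and Pphln1 differences was not tested.

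Reads of overlapping genes could enter or leave these counts, as no strand setting is given in the sources used here and the kit does not mark strand. Fam208b shares 1184 of 12454 exonic bases with Gdi2 on the opposite strand. Gdi2, a regulator of Rab proteins, measured 503.2, 754.3 and 798.5 CPM in Cre negative and 431.8, 646.9 and 705.5 CPM in Cre positive macrophages. The groups of Gdi2 overlapped, and the part of its reads in the Fam208b difference was not tested. Fam208a shares 1763 of 13627 bases with Ccdc66, which measured at most 42.6 CPM in macrophages. Mphosph8 shares 384 of 3586 bases with the noncoding gene Gm16973, which measured at most 3.25 CPM in HSCs. Morc2a shares 483 of 6422 bases with the noncoding RNA Tug1, Setdb1 75 of 6853 with Cers2 and 249 with Gm37500, Atf7ip 83 of 20726 with Gm44140, and Pphln1 and Trim28 share none. Gm44140 had 0 reads in all libraries, and Gm37500 measured at most 1.77 CPM in macrophages.

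The Cre negative libraries of the sorts were compared next, a contrast that did not choose the genes. By edgeR's test, with 16771 genes tested, 5 of the 8 rose and 0 fell in macrophages relative to HSCs as counted (Morc2a, Fam208a, Fam208b, Atf7ip and Trim28), where 21.2% of all genes were called higher and 14.3% lower. Without overlap stood 7 of 8, all higher, where 29.2% of all genes lay higher and 24.6% lower. The median of the 8 was 1.33 and that of all genes 0.25. Cell type, library batch, annotation and counting cannot be told apart in this contrast: mitochondrially encoded genes took 0.387% to 0.590% of Cre negative HSC reads and 7.72% to 14.2% of Cre negative macrophage reads, and the macrophage table lists 4907 identifiers that GENCODE M21 does not name. Endothelial markers took 0.794% to 1.60% of reads in these macrophage libraries and 0.517% to 1.06% in the HSC libraries, and their part in the contrast was not tested.

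Exonic length moved with that contrast. Over 10 length classes of equal size, the median log2 fold change was -0.04 and -0.63 in the 2 classes of shortest genes and 1.70 in the longest class, where 49.8% of genes were called higher. Across 16762 genes the Spearman correlation of length and fold change was 0.27, a description over genes that are not independent replicates. Of the 8 genes, Fam208a (13627 bases), Fam208b (12454) and Atf7ip (20726) fall in the longest class, Setdb1 and Morc2a in the eighth, Pphln1 and Trim28 (4158) in the sixth and Mphosph8 in the fifth. A fit with the length trend of each library removed, chosen after seeing the data, called 2 of the 8 higher and 0 lower, where it called 18% of all genes higher and 11.7% lower. The median of the 8 was then 0.58 and that of all genes 0.31. Without overlap stood 3 of the 8 higher and 1 lower, where 27.1% of all genes lay higher and 21.2% lower in that fit.

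**Figure D3:**
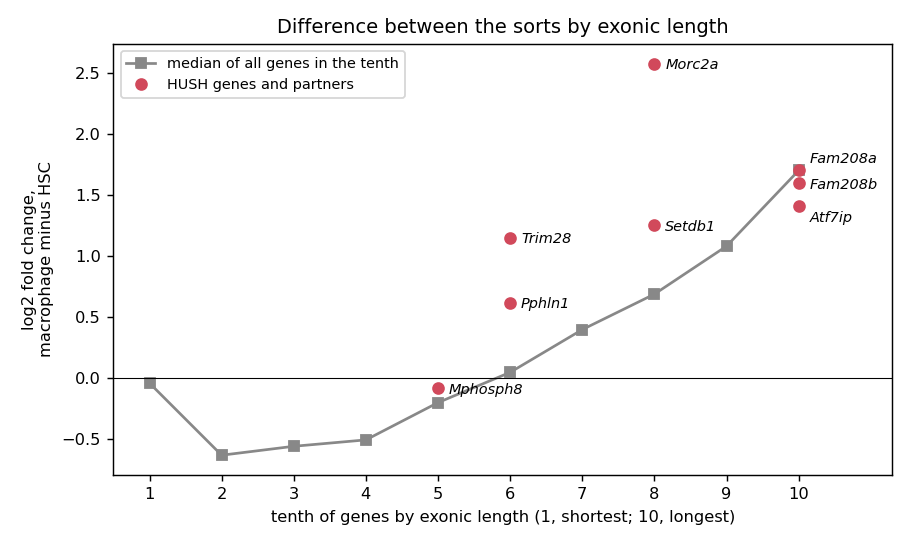
Log2 fold change of Cre negative macrophages minus Cre negative HSCs by class of exonic length (10 classes of equal size): grey squares are medians of all genes in the class, red points the 8 genes. The medians run from -0.63 in the second class to 1.70 in the longest, where Fam208a (1.71), Fam208b (1.60) and Atf7ip (1.42) lie. Morc2a (2.58) lies farthest above the median of its class, and Trim28, Pphln1, Setdb1 and Mphosph8 also lie above theirs.

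Morc2a, the gene of the chromatin-compacting ATPase, differed most. In the joint scaling of these 6 libraries it measured 12.4, 23.6 and 22.4 CPM in HSCs and 121.3, 96.3 and 131.6 CPM in macrophages. The groups were far apart, with a log2 fold change of 2.58 (SE 0.37, edgeR adjusted p = 0.00167), or 5.98-fold, and 2.14 (SE 0.35, adjusted p = 0.00400) with the length trend removed. Over its 14 alternatives the largest adjusted p was 0.00875. The overlapping Tug1 measured 49.0 to 97.1 CPM in HSCs and 56.1 to 82.6 CPM in macrophages, and its part in the Morc2a difference was not tested. Trim28 measured 112.2, 138.3 and 124.7 CPM against 366.1, 289.7 and 177.5 CPM, without overlap. Its log2 fold change was 1.15 (SE 0.30, edgeR adjusted p = 0.0186), and 1.48 (SE 0.30, adjusted p = 0.00945) with the length trend removed; without Cre negative macrophage replicate 2 the adjusted p was 0.0552, the largest of its alternatives.

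The calls on the 3 longest genes ended with the length trend removed. Fam208a measured 31.8, 29.8 and 33.2 CPM in HSCs and 121.2, 96.4 and 92.2 CPM in macrophages, a log2 fold change of 1.71 (SE 0.29, edgeR adjusted p = 0.00382) that became 0.11 (SE 0.28, adjusted p = 0.815). Gdi2, which overlaps Fam208b, was the higher in macrophages as well, at 529.9, 409.5 and 371.3 CPM against 606, 822 and 893.3 CPM (log2 fold change 0.82), and its part in the Fam208b difference was not tested. Fam208b, at 17.6 to 22.6 CPM in HSCs against 52.9, 60.3 and 69.1 CPM, went from 1.60 (SE 0.36, edgeR adjusted p = 0.0114) to 0.16 (SE 0.36, adjusted p = 0.785). The groups of both paralogs were apart as counted. Atf7ip, at 68.7, 92.5 and 138.5 CPM against 322.5, 196.5 and 280.4 CPM, went from 1.42 (SE 0.33, edgeR adjusted p = 0.0132) to -0.78 (SE 0.29, adjusted p = 0.0716), a change of sign. Setdb1 missed the threshold as counted, with 43.3, 26.0 and 26.2 CPM against 117, 59.2 and 51.5 CPM (log2 fold change 1.25, SE 0.43, edgeR adjusted p = 0.0513). It passed in 7 of 14 alternatives and stood at 0.68 (adjusted p = 0.266) with the length trend removed. Pphln1, at 51.2, 51.8 and 56.1 CPM against 71.6, 80.5 and 92.5 CPM, did not overlap and had a difference of 0.62 (SE 0.28, edgeR adjusted p = 0.127), and passed with DESeq2 (adjusted p = 0.0232). Mphosph8 measured 49.3, 56.8 and 40.1 CPM against 52.2, 57.2 and 28.7 CPM, overlapping groups with a difference of -0.08 (SE 0.39, edgeR adjusted p = 0.892).

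**Figure D4:**
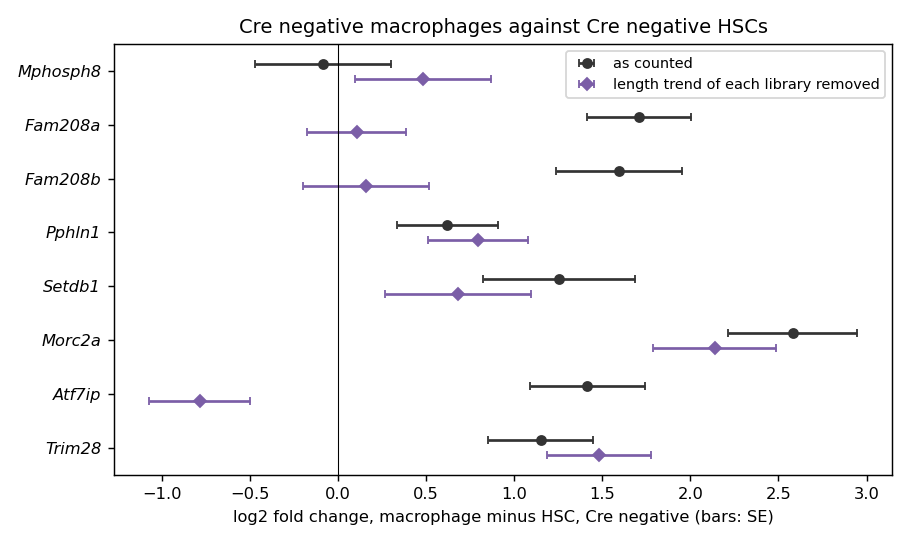
Log2 fold change of each gene in Cre negative macrophages minus Cre negative HSCs (3 libraries each, bars of 1 SE), as counted (black) and with the length trend of each library removed (purple). Morc2a (2.58 and 2.14) and Trim28 (1.15 and 1.48) pass the test in both fits, while Fam208a, Fam208b and Atf7ip do so only as counted.

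The wider pathway was described by gene lists, beside the median of all genes in the same contrast. Of the 10 tested H3K9 writers and readers, which set or bind the methyl mark, 7 had the higher mean in HSCs labelled Cre positive (median 0.28 against -0.01 for all genes) and 1 of 10 in Cre positive macrophages (median -0.31 against -0.16). Ehmt2, the methyltransferase G9a, measured 37.2, 44.6 and 33.9 CPM in Cre negative HSCs and 45.8, 63.0 and 173.0 CPM under the Cre positive label, without overlap. The SUMO pathway links TRIM28 to SETDB1, and of its 16 genes 7 had the higher mean in HSCs labelled Cre positive (median -0.07). The SUMO proteases Senp2 (48.2 to 73.2 CPM against 94.1 to 131.4 CPM), Senp5 (8.75 to 12.5 against 22.4 to 49.5) and Senp6 (74.4 to 87.9 against 89.2 to 200.3) lay higher there without overlap. Lower without overlap, and named after their values were seen, were the E1 subunit gene Uba2 (210.6 to 234.7 CPM against 77.2 to 202.4 CPM) and Sumo3 (388.1 to 529.9 against 299.4 to 347.8). Of all genes 6.37% lay higher and 9.33% lower without overlap in HSCs. In macrophages 6 of the 16 had the higher mean (median -0.32). There 0 of the 16 lay higher and 2 lower without overlap, against 2.27% and 11.8% of all genes. These were Pias4 (38.3 to 46.8 against 0 to 24.4 CPM) and the protease gene Senp3 (80.45 to 133.4 against 52.0 to 62.5). Of 10 tested heterochromatin partners 6 had the higher mean in HSCs labelled Cre positive. Morc4, a MORC family ATPase gene, measured 24.5 to 35.5 CPM against 8.48 to 13.4 CPM, lower without overlap. In macrophages 9 of 12 had the higher mean, and Morc4 measured 32.5 to 38.6 CPM against 44.6 to 90.0 CPM, without overlap on the other side.

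Nuclear RNA decay genes, some of which work with HUSH on its RNA targets, had a median of 0.04 in HSCs (9 of 14 with the higher mean) and -0.18 in macrophages (6 of 14). Zcchc8, the scaffold of the nuclear exosome targeting complex, measured 72.5, 69.4 and 91.0 CPM in Cre negative and 37.4, 27.0 and 34.8 CPM in Cre positive macrophages. Exosc9, an exosome subunit gene, lay lower without overlap in both sorts, at 53.6 to 74.1 against 29.2 to 46.7 CPM in HSCs and 53.5 to 70.6 against 20.4 to 35.3 CPM in macrophages. The H3K9 erasers had the higher mean in 2 of 6 tested in HSCs and 5 of 6 in macrophages. KRAB zinc finger partners of TRIM28 did so in 2 of 5 and 5 of 6 tested, and retroelement restriction genes in 5 of 9 and 2 of 9.

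Interferon-stimulated genes, which respond when retroelement nucleic acid is sensed, had the higher mean in 5 of 21 tested in HSCs labelled Cre positive (median -0.42 against -0.01) and in 12 of 21 in Cre positive macrophages (median 0.34 against -0.16). Irf9, a subunit of the interferon-activated factor ISGF3, measured 80.6, 68.0 and 66.4 CPM in Cre negative HSCs and 30.3, 35.2 and 33.4 CPM under the Cre positive label, without overlap. Ifit3 measured 4.05, 11.1 and 13.5 CPM in Cre negative and 14.8, 81.3 and 28.2 CPM in Cre positive macrophages. Of the 21 there, 2 lay higher and 1 lower without overlap. The lower was Mx2, named after its values were seen, at 3.59 to 14.9 against 0 to 1.57 CPM. Of the nucleic acid sensors, 5 of 10 and 4 of 11 had the higher mean. Tmem173, which encodes STING, measured 137.1 to 156.1 CPM in Cre negative HSCs and 78.3 to 92.2 CPM in those labelled Cre positive, and in macrophages 16.7 to 34.9 against 38.5 to 66.9 CPM, so its groups did not overlap in either sort and lay in opposite order. In macrophages 1 of the sensor genes lay higher and 3 lower without overlap, where 2.27% and 11.8% of all genes did. The lower ones were Mavs (48.9 to 62.1 against 7.25 to 38.1 CPM) and Tlr7 (28.85 to 40.6 against 11.2 to 20.7). Tlr3 (8.75 to 14.2 against 0 to 5.76), named after its values were seen, was the other. Of the members of these lists 0 passed edgeR's adjusted threshold in either genotype contrast.

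Pathway lists were counted in the same way between the Cre negative sorts, where edgeR called 21.2% of all genes higher and 14.3% lower as counted, and 18% and 11.7% with the length trend removed. Of 11 H3K9 writers and readers, 3 rose and 1 fell in macrophages as counted, and 1 rose and 1 fell with the length trend removed. Ehmt2 measured 36.4, 43.5 and 33.0 CPM in HSCs and 182.3, 190.1 and 226.8 CPM in macrophages as counted (edgeR adjusted p = 0.000512). Of 7 erasers 3 rose as counted and 2 with the trend removed, and 0 fell in either fit. Of 11 heterochromatin partners 3 rose and 1 fell as counted, and 2 rose and 3 fell with the trend removed. Of 14 nuclear RNA decay genes 1 rose and 4 fell, and with the trend removed 1 rose and 3 fell. Of the 16 SUMO pathway genes 3 rose and 6 fell in either fit, the E1 subunit gene Sae1 at 388.9 to 472.1 CPM in HSCs and 83.8 to 111.4 CPM in macrophages among those that fell as counted (edgeR adjusted p = 0.000572). Of 5 KRAB zinc finger partners 3 rose in either fit, with Zfp57, which keeps imprints methylated, at 11.99 to 24.3 CPM against 42.3 to 106.3 CPM as counted (edgeR adjusted p = 0.0140).

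The genes most like the chosen genes across libraries were taken by Pearson's r of log2(CPM + 1) over the 6 libraries of a sort. Candidates had a mean of at least 20 CPM, and unnamed genes, pseudogenes and symbols of the Gm or Rik kind were left out. Nearest to Mphosph8 in HSCs, of 8126 candidates, were Apopt1 (r = 0.99), Snrnp27 (0.98), Clasp1 (0.97), Brpf1 (0.97) and Trnau1ap (0.97). Nearest to Fam208b in macrophages, of 7191, were Cenpc1 (r = 0.98), Ago4 (0.98), Trpm4 (0.97), Traip (0.96) and Fam110a (0.96). With 6 libraries in 2 groups and so many candidates, such values describe these libraries and carry no test.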

How the data were processed

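RNA was measured in 12 libraries from 2 sorts with the SMART-Seq v4 kit, per the labels' protocols. The authors deposited raw read counts per gene, 1 table per sort, per the file headers and values. For HSCs the submitters' processing notes name STAR 2.7.6a, featureCounts, Subread 2.0.1 and GRCm38 (mm10); for macrophages they name mm10. The macrophage aligner and counter, and strand, multiple mapping and annotation settings for both tables: not given in the sources used here. Names and exonic lengths are those of GENCODE M21 (GRCm38), which leaves 127 HSC and 4907 macrophage identifiers unnamed (0.0224% to 0.0352% and 3.93% to 5.91% of reads).

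Each contrast was fitted with edgeR 4.0.16 in R 4.3.3 over all genes: filterByExpr by group, TMM scaling, robust glmQLFit and glmQLFTest, Benjamini-Hochberg adjusted p under 0.05. Standard errors are the log2 fold change over the root of F. The Cre negative contrast used identifiers shared by the tables. The limit that a count of 0 allows, 3 reads, is 0.0387 to 0.0577 CPM of the library total in HSCs, 0.122 to 0.174 in Cre negative and 0.559 to 1.15 in Cre positive macrophages, for counting error only. Libraries of a group differed by more than sampling noise (chi-square per degree of freedom 51.7 to 833), so each was kept as 1 replicate. Alternatives were DESeq2 1.42.0, upper-quartile scaling, library totals, no filter, a replicate block, left-out libraries, thinning, leaving out mitochondrially encoded genes and, added after seeing the data, removal of each library's trend with exonic length (lowess over genes of at least 10 CPM, as an offset); the count of non-overlapping genes was also added then. The fits were tested on simulated data. The genes and lists were chosen with earlier results of these data known. Named genes were the 8, up to 3 per list with the smallest unadjusted p and a mean of 5 CPM or more in the higher group, and the 5 most alike to Mphosph8 and Fam208b.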

Additional observations from a re-analysis of the deposited data

Results flagged for a closer look

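The groups of Morc4 and of Tmem173 did not overlap in either sort and lay in opposite order. The log2 fold change of Morc4 was -1.35 in HSCs labelled Cre positive and 0.90 in Cre positive macrophages. That of Tmem173 was -0.75 in HSCs and 0.98 in macrophages. The difference between the sorts was not tested for either gene. Both were flagged by their values. Of all genes, 6.37% lay higher and 9.33% lower without overlap in HSCs, and 2.27% and 11.8% in macrophages. The share in opposite order was not counted.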

How the results depend on the processing

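The genes called in the HSC genotype contrast numbered 0 in edgeR and 133 with DESeq2, and 0 in each other alternative. In the macrophage genotype contrast 0 became 61 with DESeq2, 21 without a filter on low counts, 13 with the replicate block and 1 to 34 without single libraries (34 without Cre positive replicate 3). Between the Cre negative sorts 5953 calls became 3388 to 10336 without single libraries (10336 without macrophage replicate 1, 3388 and 3575 without HSC replicates 1 and 2, 3953 without macrophage replicate 2); the cause was not tested. The members without overlap, 2 in HSCs, numbered 2 to 5 without single libraries (5 and 4 without replicates 2 and 3 labelled Cre positive), where 8.57% to 13% of all genes lay higher and 12.4% to 18.8% lower. In macrophages the 2 became 2 to 3 without single libraries, where 3.29% to 6.1% of all genes lay higher and 13.8% to 23.4% lower. They became 1 with upper-quartile scaling (3.26% of all genes higher, 10.2% lower), 1 on library totals (3.52% and 9.69%) and 1 after thinning (4.42% and 8.51%). Between the Cre negative sorts the 7, all higher, became 4 with the length trend removed, 3 higher and 1 lower. In that fit 27.1% of all genes lay higher and 21.2% lower without overlap. The Mphosph8 difference between the sorts changed sign with DESeq2 (0.075), upper-quartile scaling (0.035), thinning (0.015) and the length trend removed (0.48), and ran from -0.29 to 0.14 without single libraries; Atf7ip changed sign with the length trend removed (-0.78). In the genotype contrasts 195 of 200 alternative values of the 8 genes moved by less than 1 SE, and 5 moved by more, all without single libraries. Mphosph8 and Pphln1 in HSCs and Fam208b in macrophages kept their sign in each alternative run, at 1.00 to 1.24, -1.20 to -0.86 and 1.24 to 1.70. This is no support for these differences. Groups without overlap keep their order in a fixed scaling when a library is left out, and Mphosph8 and Fam208b helped choose the set. Replicate numbers did not pair the libraries: same-numbered deviations correlated at -0.03 to 0.01 in HSCs and -0.02 to 0.03 in macrophages. With the replicate block 0 genes were called in HSCs, 13 in macrophages and 4368 between the Cre negative sorts. Depth limits the Cre positive macrophages, where 3 reads are up to 1.15 CPM.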
